A study of Mus musculus with 12 samples.

Results

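The genes described here encode the enzymes that build purine and pyrimidine nucleotides from small precursors. They were 10 of the 27597 gene names on the array: Cad, Dhodh and Umps of pyrimidine synthesis; Ppat, Gart, Pfas, Paics and Atic of the route to inosine monophosphate (IMP); and Impdh2 and Gmps of the branch to guanosine monophosphate (GMP). A probe was taken if it was no control and its gene name in the file equalled one of these symbols, which gave 23 of 41174 probes. Some group had all 3 of its arrays well above background for 21 of these, which were tested among 28607 such probes, and every gene kept at least 1 probe. The most intense kept probe of a gene represents it below, and its other probes are given beside it.

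In pyrimidine synthesis, a trifunctional cytosolic protein makes dihydroorotate, an enzyme of the inner mitochondrial membrane oxidises it to orotate, and a bifunctional protein turns orotate into uridine monophosphate. In purine synthesis the ring is built on phosphoribosyl pyrophosphate in steps that use glutamine, glycine, aspartate and formyl groups carried by folate. Dividing cells are known to lean on both routes, whereas resting skeletal muscle is known for the recycling of adenine nucleotides and for salvage.

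RNA was measured on 12 one-colour Agilent mouse arrays in 4 groups of 3. The soleus, a slow postural muscle, and the extensor digitorum longus (EDL), a fast muscle, came from CD1 male mice aged 3 months, each sample pooling the muscle of both hind limbs of 1 mouse. Myotubes were C2C12 cells, an established line of mouse muscle precursors, shifted at 90% confluence to medium with 2% horse serum for 96 hours, then trypsinised and replated for 30 minutes so that mononucleated cells attached and the floating myotubes could be collected. Myoblasts were the same line in 10% fetal bovine serum, taken at about 50% confluence, and no group carried an engineered allele or received a drug. Separate cultures within a group are not stated, nor is it stated whether soleus and EDL samples shared mice, so each p-value reflects the spread among the samples given, which may be technical.

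Promoter windows of 250 bases before to 50 bases after the annotated start (RefSeq, build GRCm38.p6) are shown for Paics and Ppat, which are neighbours, and for Atic and Impdh2, which fell in myotubes against myoblasts and hold the same short motif as Paics. Capitals mark matches, on either strand, to CACGTG, the E-box bound by Myc and its Max partners, to TTTNNCGC, an E2F-like motif, and to the palindromic motif of nuclear respiratory factor 1 (NRF1). All 4 read 5′ to 3′ on the strand of the gene, Paics at chr5:76951052-76951351 (plus), Ppat at chr5:76951529-76951828 (minus), Atic at chr1:71556906-71557205 (plus) and Impdh2 at chr9:108560186-108560485 (plus).
Paics: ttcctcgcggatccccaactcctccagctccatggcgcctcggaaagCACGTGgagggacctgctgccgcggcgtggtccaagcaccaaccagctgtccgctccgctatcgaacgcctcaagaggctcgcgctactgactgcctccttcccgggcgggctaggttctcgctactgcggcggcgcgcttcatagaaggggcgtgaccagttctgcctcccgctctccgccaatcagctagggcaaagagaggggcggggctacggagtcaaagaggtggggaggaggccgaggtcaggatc
Ppat: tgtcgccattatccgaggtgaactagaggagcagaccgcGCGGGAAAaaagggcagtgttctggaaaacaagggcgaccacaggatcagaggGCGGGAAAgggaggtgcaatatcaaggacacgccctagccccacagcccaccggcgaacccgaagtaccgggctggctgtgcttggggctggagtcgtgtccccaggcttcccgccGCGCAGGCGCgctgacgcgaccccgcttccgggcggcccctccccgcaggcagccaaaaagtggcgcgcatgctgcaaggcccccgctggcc
Atic: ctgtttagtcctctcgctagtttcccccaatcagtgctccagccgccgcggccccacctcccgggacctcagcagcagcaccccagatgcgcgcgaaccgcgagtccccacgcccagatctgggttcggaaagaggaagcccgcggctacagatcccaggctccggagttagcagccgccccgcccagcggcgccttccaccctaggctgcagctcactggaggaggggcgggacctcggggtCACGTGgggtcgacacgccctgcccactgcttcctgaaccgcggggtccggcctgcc
Impdh2: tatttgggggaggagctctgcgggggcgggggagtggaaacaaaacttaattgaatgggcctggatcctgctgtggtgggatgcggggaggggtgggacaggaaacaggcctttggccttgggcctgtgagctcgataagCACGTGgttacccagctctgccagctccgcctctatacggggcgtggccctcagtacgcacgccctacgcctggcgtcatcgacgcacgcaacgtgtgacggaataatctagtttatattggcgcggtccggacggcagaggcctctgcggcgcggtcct
CACGTG was found in 3 of the 8 member windows in the table, Paics at -203, Atic at -7 and Impdh2 at -110 from the start, and in 7.15% of all 32851 windows. Ppat alone among the 8 held TTTNNCGC, at -211 and -158, and the NRF1 motif, at -42. These occur in 5.17% and 6.23% of all windows. The GC-box GGGCGG was in all 8 member windows and in 35.7% of all windows, and CCAAT in 4 of 8 and in 37.4%. One TTTNNCGC match of Ppat overlaps a GGGCGG match. The annotated start of Paics, at 76951302 on the plus strand of chromosome 5, lies 277 bases (both ends counted) from that of Ppat, at 76951578 on the minus strand, so that their 5′ ends overlap. The windows of Cad and Umps, which also fell in myotubes against myoblasts, held no CACGTG, and Paics, which holds it, was not called there. Dhodh and Pfas had no window. A match describes these letters and is no measure of binding. Promoter coordinates are of another build than the probe coordinates below and are not converted.

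Levels are normalized log2 signals, the background-subtracted probe signal scaled by each array's 75th percentile, and differences are on the same scale. A gene was called higher or lower at a Benjamini-Hochberg adjusted p under 0.05 and a difference of at least 1 in size in a limma fit of all kept probes and all 12 arrays. The unscaled 75th percentile was 457.3 to 614.3 on soleus arrays, 465.7 to 594.8 on EDL arrays, 1018 to 1230 on myotube arrays and 1048 to 1556 on myoblast arrays, and 57.4% to 72.8% of probes were well above background. The unscaled log2 signal of 8 spike-in control probes was 0.11 higher in muscle than in culture while the 75th percentile was lower, so scaling by these probes instead moved every difference by -0.35 in myotubes against myoblasts, by -1.01 in EDL and -1.21 in soleus against myotubes, and by -0.20 in soleus against EDL. The median over all kept probes was 0.02, 0.14, 0.09 and -0.03 in these comparisons under percentile scaling. It was -0.33, -0.87, -1.12 and -0.23 with spike-in scaling. Shares of all genes called were counted under percentile scaling only. The 3 slides carried 4 arrays each, 1 per group, and replicate numbers follow the slides. The first slide had a scan day of its own. Each group kept 1 place on all slides, so place and group cannot be told apart. The summed normalized signal of 5 slow fibre genes was 2190000 to 2340000 in soleus, 107000 to 130000 in EDL, 503000 to 602000 in myotubes and 6950 to 7800 in myoblasts.

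Comparing myotubes with myoblasts asks how the enzymes differ between fused cells and the dividing cells they came from. The groups also differ in serum, confluence, time in culture and replating, which cannot be told apart from fusion. Of the 10 genes, 5 fell (Pfas, Cad, Umps, Impdh2 and Atic) and none rose, or 8 fell with spike-in scaling, which added Dhodh (-1.19), Ppat (-1.17) and Gmps (-1.16). The 5 under percentile scaling stood against 16.5% of 18861 genes called lower and 18.9% called higher. With spike-in scaling the median over all kept probes was -0.33, and no such share was counted for the 8. The median difference of the 10 was -0.96, with a range of -3.25 to -0.21. Within each of the 3 slides all 10 differences kept their sign. In 9 of 10 genes every myotube array lay under every myoblast array, a pattern seen in 32.8% of all genes, with the opposite one in 35.9%. A list of 7 genes of dividing cells also fell in 7 of 7, with a median difference of -5.79. Their summed normalized signal was 9890 to 10600 in myotubes and 105000 to 117000 in myoblasts. Most of the myotube sum came from Pcna, at 13.08, 13.15 and 13.16 there. The part of this list in the differences of the 10 genes was not tested. In bulk samples fewer cells of a type and less RNA per cell cannot be told apart.

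**Figure D1:**
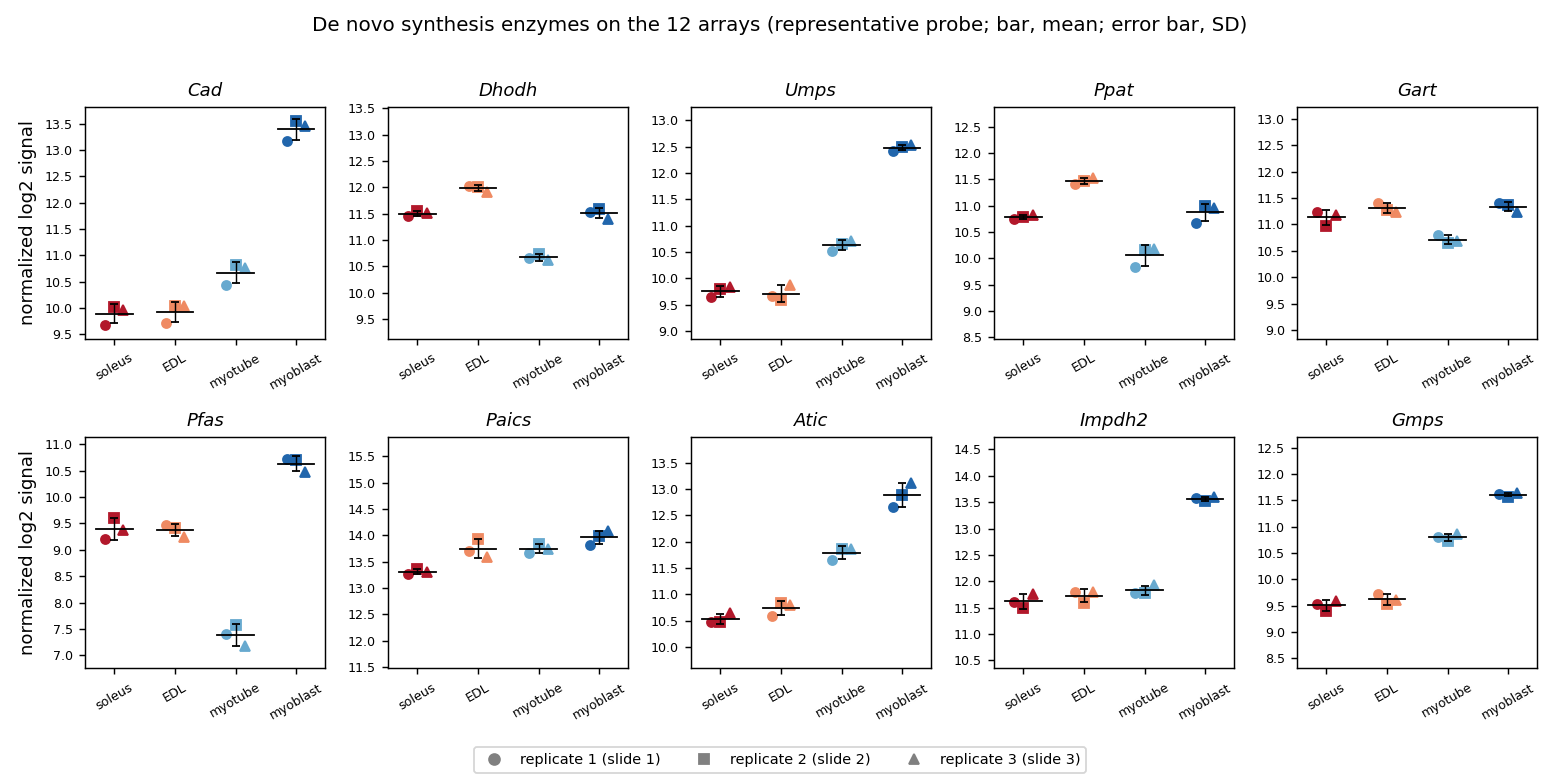
Normalized log2 signal (y axis) of the representative probe of each of the 10 genes on every array, grouped as soleus, EDL, myotube and myoblast (x axis); horizontal bars are group means and error bars the SD of 3 arrays, each panel spans the same number of log2 units, and symbols give the slide. Cad, Umps, Atic and Gmps descend by group toward the muscles, while Pfas has its minimum in myotubes, at 7.17 to 7.58.

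Cad, the trifunctional protein that commits carbon to pyrimidines, is read by 4 probes on the plus strand of chromosome 5 (mm8, the build of the array design), the representative one at chr5:31354889-31354948. Its signals were 9.68, 10.01 and 9.97 in soleus, 9.71, 10.03 and 10.04 in EDL, 10.44, 10.82 and 10.76 in myotubes, and 13.17, 13.55 and 13.46 in myoblasts. The myoblast arrays stood far above all others, the myotube arrays came next without overlap, and soleus and EDL overlapped. Myotubes were 6.58-fold lower than myoblasts (difference -2.72, SE 0.15, limma adjusted p = 1.2e-07). EDL and soleus were 11-fold and 11.3-fold lower than myoblasts (-3.46 and -3.50, SE 0.15 each). Against myotubes the differences were -0.75 in EDL and -0.79 in soleus (adjusted p = 0.0014 and 0.001), short of the fold threshold. With spike-in scaling both muscles were called lower, EDL at -1.75 (adjusted p = 0.0039) and soleus by more (adjusted p = 0.0014). A probe that overlaps the representative one by most of its length gave -2.61 in myotubes, and a non-overlapping one close upstream gave -2.53. The remaining probe, at chr5:31343655-31343714, was dim, well above background on 2 of 3 soleus and 1 of 3 EDL arrays, and its myotube difference was -0.64 (adjusted p = 0.34).

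Dhodh, the mitochondrial dihydroorotate dehydrogenase that passes electrons to ubiquinone, has 1 probe at chr8:112482694-112482753 (minus strand). It gave 11.45, 11.55 and 11.51 in soleus, 12.03, 12.01 and 11.92 in EDL, 10.65, 10.74 and 10.62 in myotubes, and 11.54, 11.59 and 11.40 in myoblasts. EDL was highest and myotubes lowest, each apart from all other arrays, and soleus and myoblast arrays overlapped (difference -0.01, SE 0.08). The myotube difference from myoblasts was -0.84 (SE 0.08, adjusted p = 6.6e-06), short of the fold threshold. Dhodh rose in EDL against myotubes by 1.32 (2.49-fold, SE 0.08, adjusted p = 1.3e-07), and the soleus difference was 0.83 (adjusted p = 5.3e-06). Both values rest on the percentile scaling, since spike-in scaling gave 0.31 in EDL and -0.38 in soleus, neither called.

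Umps, the bifunctional uridine monophosphate synthase, is read at chr16:33876604-33876663 (minus strand). Arrays of soleus had 9.64, 9.79 and 9.84, of EDL 9.66, 9.58 and 9.88, of myotubes 10.52, 10.65 and 10.71, and of myoblasts 12.42, 12.49 and 12.52. The order was that of Cad, with soleus and EDL again overlapping. Umps fell 3.60-fold in myotubes against myoblasts (-1.85, SE 0.10, limma adjusted p = 8.4e-08) and lay 2.77 under myoblasts in EDL and 2.72 under them in soleus. The differences from myotubes were -0.92 in EDL and -0.87 in soleus, close to the fold threshold, and -1.93 and -2.08 with spike-in scaling, both called lower. A second probe on the same strand gave -1.60 in myotubes against myoblasts and was called lower in soleus than in myotubes (-1.36). The remaining probe, on the opposite strand, was well above background on 1 array of each group and was not tested.

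On the route to IMP, Ppat, the amidotransferase that opens purine synthesis and is restrained by its end products, is read by the XM_896000 probe at chr5:77988376-77988435 and by the BC023841 probe at chr5:77992865-77992924, both on the minus strand. The XM_896000 probe gave 10.74, 10.78 and 10.82 in soleus, 11.42, 11.47 and 11.52 in EDL, 9.83, 10.16 and 10.18 in myotubes, and 10.68, 10.99 and 10.95 in myoblasts. The BC023841 probe gave 9.27, 9.45 and 9.52 in soleus, 9.95, 10.14 and 9.96 in EDL, 9.59, 9.75 and 9.82 in myotubes, and 10.64, 10.75 and 10.84 in myoblasts. EDL was the highest group by the XM_896000 probe, and myoblasts were the highest by the BC023841 probe. In myotubes against myoblasts the 2 probes gave -0.82 (SE 0.12) and -1.02 (SE 0.10), of which the second passed the fold threshold. In EDL against myotubes they gave 1.42 (2.67-fold, adjusted p = 1.3e-06) and 0.30 (adjusted p = 0.026), and in soleus 0.73 and -0.31. With spike-in scaling the XM_896000 values were 0.41 in EDL and -0.48 in soleus, neither called, and the BC023841 value in EDL was -0.71. Under percentile scaling the mean of both probes in EDL was 0.86, also not called.

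Gart, the trifunctional protein of steps that include a formyl transfer, lies on the minus strand of chromosome 16. Its AK168445 probe at chr16:91522356-91522415 had 11.24, 10.98 and 11.18 in soleus, 11.41, 11.28 and 11.24 in EDL, 10.81, 10.65 and 10.68 in myotubes, and 11.40, 11.37 and 11.24 in myoblasts. Myotube arrays were under all others, and EDL and myoblast arrays overlapped (difference -0.03, SE 0.10). The differences from myotubes were 0.60 in EDL and 0.42 in soleus, and -0.62 in myotubes against myoblasts, none past the fold threshold. The NM_010256 probe at chr16:91513244-91513303 gave -1.11 (SE 0.18, adjusted p = 3.0e-04) in myotubes against myoblasts, 0.33 in EDL and -0.02 in soleus against myotubes. A probe on the opposite strand was well above background on no array.

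Pfas, the glutamine-dependent formylglycinamidine synthase, had the largest difference of the 10 genes in myotubes against myoblasts. Its AK133932 probe at chr11:68802023-68802082 (minus strand) had 9.21, 9.61 and 9.37 in soleus, 9.47, 9.41 and 9.25 in EDL, 7.40, 7.58 and 7.17 in myotubes, and 10.73, 10.70 and 10.48 in myoblasts. Myotubes formed a trough, the 6 muscle arrays overlapped each other above it, and the myoblasts lay above them all. Pfas fell 9.51-fold in myotubes against myoblasts (-3.25, SE 0.14, adjusted p = 1.5e-08). It was 3.97-fold higher in EDL than in myotubes (1.99, SE 0.14, adjusted p = 4.0e-07) and 4.03-fold higher in soleus (2.01, adjusted p = 3.9e-07), and 1.26 and 1.24 under myoblasts in these muscles. With spike-in scaling the muscle differences from myotubes were 0.98 in EDL (adjusted p = 0.032) and 0.80 in soleus (adjusted p = 0.069), below the call. A dim second probe at chr11:68803507-68803566, well above background on 2 of 3 myotube arrays, gave 2.37 in EDL and 1.58 in soleus against myotubes (adjusted p = 0.004 and 0.032). In myotubes against myoblasts it gave -1.27 (adjusted p = 0.083), and averaging both probes ended the calls of the muscles against myoblasts (-0.08 in EDL and -0.46 in soleus).

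Paics, which joins carboxylation and aspartate addition in 1 protein, was called in no comparison under percentile scaling. With spike-in scaling it was called lower in 4, at -1.01 in EDL and -1.65 in soleus against myotubes, and at -1.57 in EDL and -2.21 in soleus against myoblasts. Its representative probe at chr5:78041949-78042008 (plus strand) gave 13.27, 13.36 and 13.31 in soleus, 13.71, 13.94 and 13.59 in EDL, 13.66, 13.84 and 13.75 in myotubes, and 13.82, 13.98 and 14.08 in myoblasts. Soleus arrays were under all others, and each of the other 3 groups overlapped its neighbour in that order. The difference was -0.21 in myotubes against myoblasts (SE 0.11, 95% interval -0.45 to 0.03, adjusted p = 0.12) and -0.01 in EDL against myotubes (interval -0.25 to 0.24). A second probe, whose mapped target spans 1676 bases at chr5:78034224-78035899, gave 0.01 and -0.20. Its neighbour Ppat had -0.82 and 1.42 in the same comparisons by its representative probe, and the difference between the genes was not tested.

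Atic, the last enzyme before IMP, has 1 probe at chr1:71512316-71512375 (plus strand). Its signals were 10.48, 10.47 and 10.65 in soleus, 10.58, 10.84 and 10.80 in EDL, 11.66, 11.86 and 11.86 in myotubes, and 12.66, 12.88 and 13.12 in myoblasts. Muscles, myotubes and myoblasts formed 3 separate levels, and soleus and EDL overlapped. Atic fell in myotubes against myoblasts by 1.09 (2.13-fold, adjusted p = 3.1e-05), and without myoblast replicate 3 the difference of -0.98 was not called. It was lower by 1.05 in EDL than in myotubes (adjusted p = 3.1e-05), or by 0.97 without EDL replicate 1, and the soleus difference was -1.26 (adjusted p = 7.7e-06).

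Impdh2, the inducible form of the enzyme that commits IMP to GMP, is read at chr9:108422795-108422854 (plus strand). Soleus arrays had 11.60, 11.49 and 11.76, EDL arrays 11.79, 11.58 and 11.80, myotube arrays 11.78, 11.78 and 11.92, and myoblast arrays 13.57, 13.53 and 13.60. Myoblasts stood alone, and EDL overlapped both soleus and myotubes, which did not overlap each other. Impdh2 fell 3.35-fold in myotubes (-1.74, SE 0.10, adjusted p = 1.0e-07), while the muscles differed from myotubes by -0.10 in EDL and -0.21 in soleus (adjusted p = 0.37 and 0.082). With spike-in scaling these were -1.11 and -1.42, both called lower. A second probe that overlaps the representative one gave -1.73 in myotubes against myoblasts and is no independent measure.

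Gmps, the GMP synthetase that uses glutamine, is read by the NM_001033300 probe at chr3:64086537-64086596 (plus strand). It gave 9.54, 9.39 and 9.59 in soleus, 9.73, 9.53 and 9.60 in EDL, 10.80, 10.73 and 10.87 in myotubes, and 11.62, 11.57 and 11.63 in myoblasts. The muscles overlapped each other and lay under the myotubes, which lay under the myoblasts. The myotube difference from myoblasts was -0.81 (SE 0.09, adjusted p = 1.6e-05), short of the fold threshold, and Gmps fell against myotubes by 1.18 in EDL and 1.29 in soleus (2.26-fold and 2.45-fold). The mean over its 3 kept probes gave -0.72 and -0.91, neither called. A second NM_001033300 probe gave -0.74 in myotubes against myoblasts. Against myotubes it gave -1.23 in EDL and -1.29 in soleus, both called lower. With spike-in scaling the representative probe gave -2.19 and -2.50 there, also called lower. The AK136966 probe at chr3:64107590-64107649 behaved otherwise, with 9.01, 9.25 and 9.12 in soleus, 9.13, 9.76 and 9.71 in EDL, 9.01, 9.40 and 9.43 in myotubes, and 8.64, 9.38 and 9.14 in myoblasts. All 4 groups overlapped on it, and its differences were 0.23 in myotubes against myoblasts, 0.25 in EDL and -0.15 in soleus against myotubes.

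**Figure D2:**
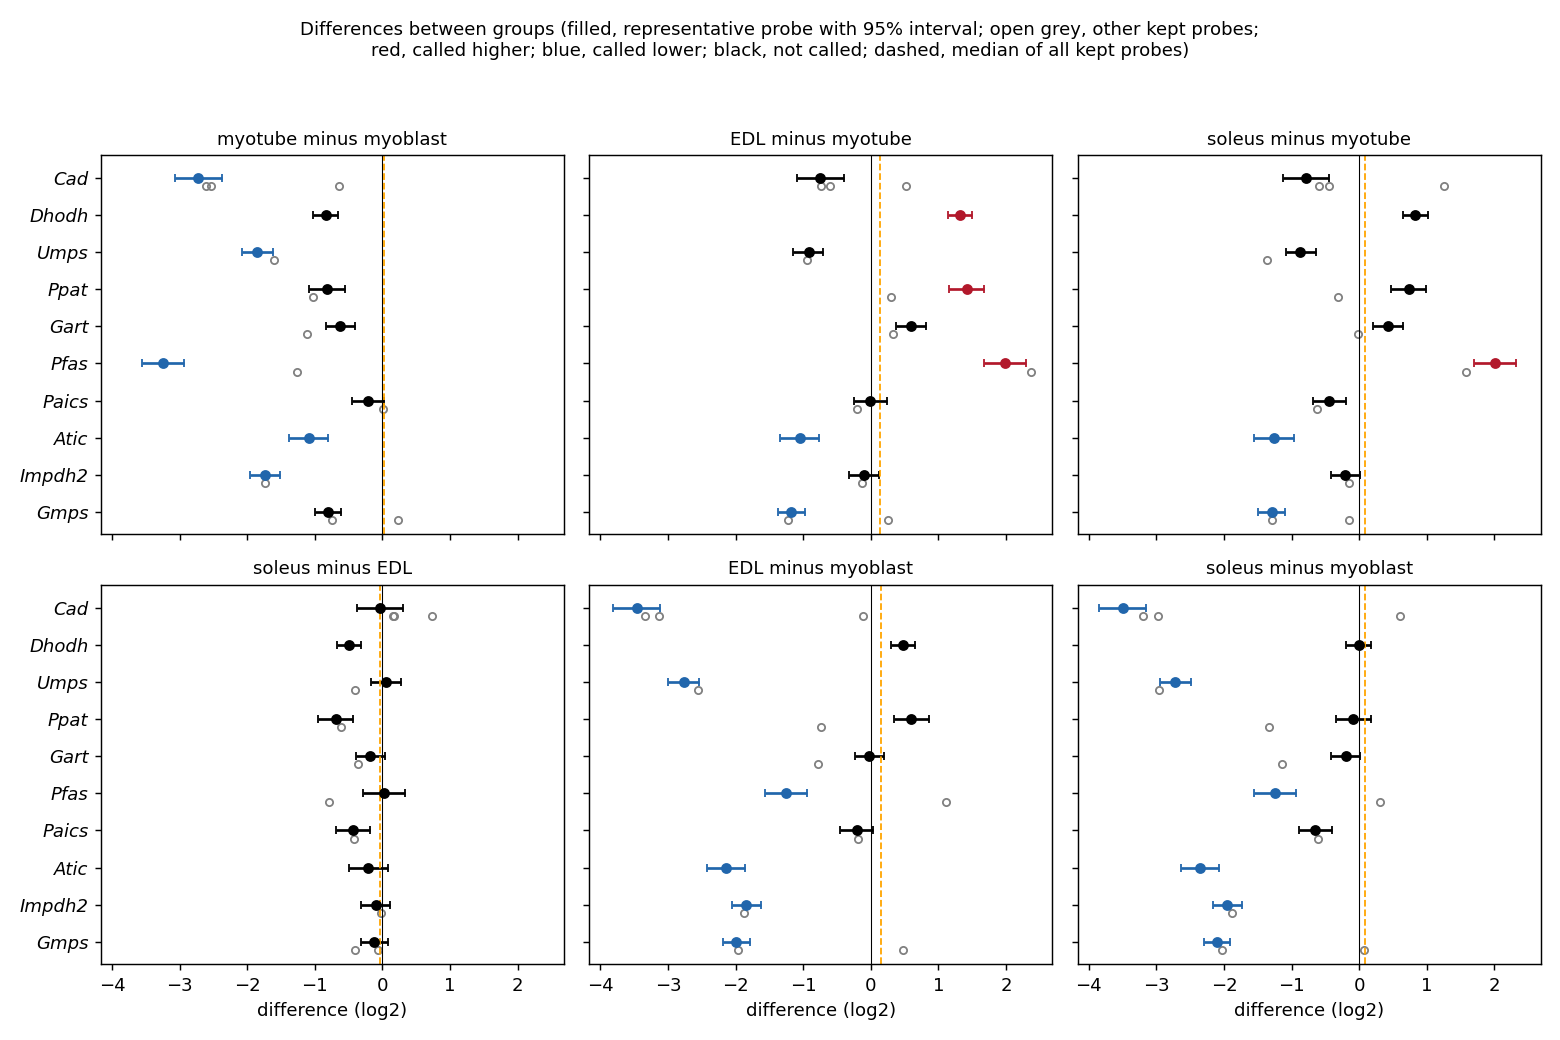
Differences (x axis, log2) of the 10 genes (y axis) in 6 comparisons; filled points are representative probes with 95% intervals, open points other kept probes, red is called higher, blue called lower, black not called, and the dashed line is the median of all kept probes. In myotube minus myoblast every filled point lies left of 0, with Pfas at -3.25 and Paics at -0.21 at the ends.

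Setting each muscle against myotubes asks how adult tissue differs from the cultured fibre. In EDL 3 of the 10 genes rose (Pfas, Ppat and Dhodh) and 2 fell (Gmps and Atic), against 27.8% and 19.9% of all genes called higher and lower. In soleus 1 rose (Pfas) and 2 fell (Gmps and Atic), against 25.8% and 19.5%. The median difference was -0.05 in EDL and -0.32 in soleus. The sign was the same within all 3 slides for 8 genes in EDL and for 10 in soleus. The groups did not overlap for 8 genes in EDL, 4 of them higher and 4 lower, and for all 10 in soleus, 4 higher and 6 lower. Such patterns occurred in 41.9% (higher) and 34.2% (lower) of genes in EDL and in 39.3% and 34.8% in soleus. These comparisons share the myotube arrays, and they depend on the scaling. With the spike-in controls no gene was called higher in either muscle and 6 were called lower in each. The median over all kept probes was then -0.87 in EDL and -1.12 in soleus, and the share of all genes called was not counted.

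**Figure D3:**
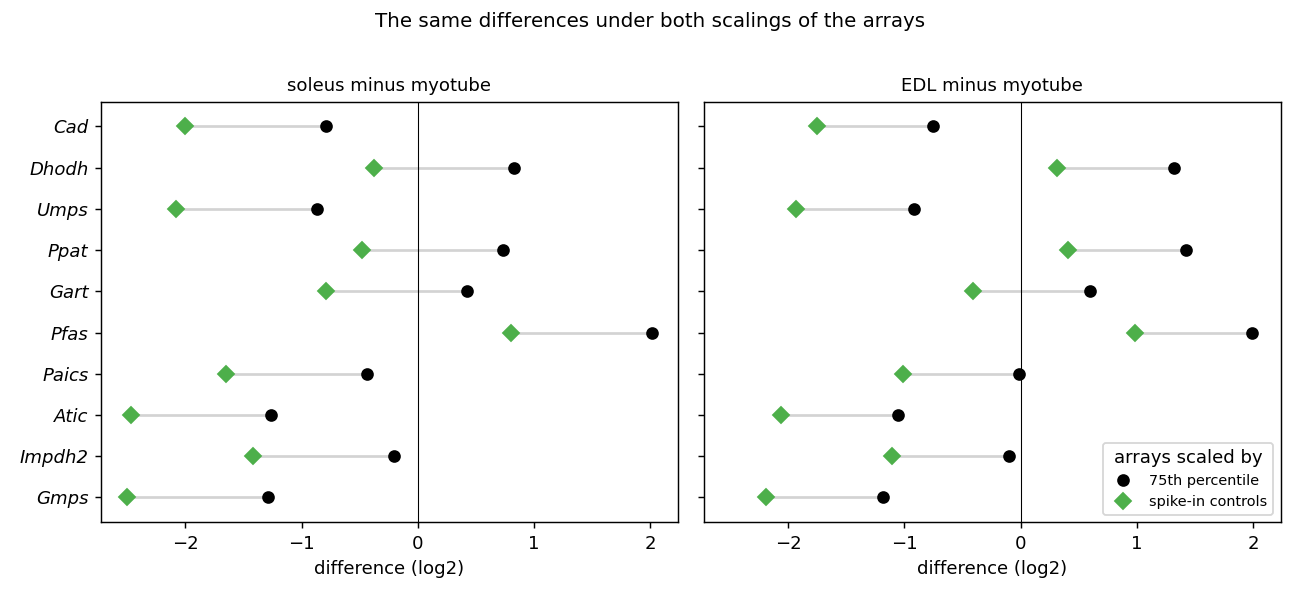
The soleus and EDL differences from myotubes (x axis, log2) of the 10 genes (y axis) with arrays scaled by the 75th percentile (circles) or by the spike-in controls (diamonds). Every gene moves left by 1.21 in soleus and 1.01 in EDL, and Pfas alone stays right of 0 in soleus, at 0.80.

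Against myoblasts, both muscles had 6 genes lower (Cad, Umps, Atic, Gmps, Impdh2 and Pfas) and none higher, beside 24.8% of genes called lower and 33% called higher in EDL, and 24.7% and 30.8% in soleus. The median was -1.55 in EDL and -1.59 in soleus, against 0.15 and 0.09 over all kept probes. The groups did not overlap for 8 genes in EDL, the 6 called lower and, wholly higher, Dhodh and Ppat. Of all genes 44.5% lay wholly higher there and 36.6% wholly lower. In soleus 7 did not overlap, the same 6 and Paics, all of them lower. There 42.2% of all genes lay wholly higher and 37.2% wholly lower. Atic was 4.42-fold lower in EDL and 5.11-fold lower in soleus, and Gmps 3.97-fold and 4.29-fold lower. With spike-in scaling 8 were lower in EDL, adding Gart (-1.39) and Paics (-1.57), and all 10 in soleus. That scaling moved every difference by -1.36 in EDL and -1.56 in soleus. The median over all kept probes was then -1.21 and -1.47, itself past the fold threshold, and the share of all genes called was not counted. The 4 genes not called under percentile scaling were Dhodh, at 0.48 in EDL and -0.01 in soleus, Ppat, at 0.60 and -0.09, Gart, at -0.03 and -0.20, and Paics, at -0.21 and -0.65.

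Soleus against EDL asks whether slow and fast muscle differ. None of the 10 genes was called, beside 4.73% of genes called lower and 5.03% called higher, and the median difference was -0.15. The sign was the same within all 3 slides for 7 genes. For 3 genes every soleus array lay under every EDL array, a pattern of 23.5% of all genes (21.2% for the opposite one), and these also had a limma adjusted p under 0.05 without reaching the fold threshold. Ppat differed by -0.69 (SE 0.12, adjusted p = 0.0013), and by -0.61 on its BC023841 probe (adjusted p = 0.0015). Dhodh differed by -0.49 (SE 0.08, adjusted p = 0.0012) and Paics by -0.43 (SE 0.11, adjusted p = 0.012). The other 7 ranged between -0.21 (Atic) and 0.05 (Umps), with the widest 95% interval for Cad, -0.38 to 0.31. With spike-in scaling none of the 3 passed (adjusted p = 0.33 for Ppat, 0.42 for Dhodh and 0.53 for Paics).

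Markers of other cells also differed between muscle and culture. Against myotubes, both muscles were higher in 7 of 7 endothelial, 6 of 7 macrophage and leukocyte, 6 of 6 fibroblast, 4 of 4 adipocyte, 4 of 4 Schwann, 3 of 3 erythroid and 4 of 4 smooth muscle and pericyte genes. Of all genes 27.8% were called higher and 19.9% lower in EDL, and 25.8% and 19.5% in soleus. The endothelial sum was 43600 to 45400 in soleus, 40000 to 40900 in EDL, 184 to 273 in myotubes and 793 to 973 in myoblasts, with Pecam1, Cdh5 and Emcn not well above background in either culture. That of macrophages and leukocytes was 14400 to 15100 in soleus, 13300 to 14000 in EDL, 156 to 169 in myotubes and 173 to 197 in myoblasts, with Ptprc, Adgre1 and C1qc not well above background in either culture. Fibroblast genes summed to 140000 to 155000 in soleus, 176000 to 227000 in EDL, 15100 to 18700 in myotubes and 73300 to 99200 in myoblasts. The 7 genes of dividing cells were lower in both muscles than in myotubes, with a sum of 4140 to 4890 in soleus and 3920 to 4150 in EDL. Top2a, Ccnb1 and Bub1 were not well above background in either muscle, nor was Cdk1 in EDL. The part of these lists in the differences of the 10 genes was not tested.

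Where a gene had several probes, their ratio within an array is free of the scaling between arrays. This comparison was added after the probes were seen to differ. Over 11 pairs of a probe with its representative, 3 differed on average between the 6 muscle and the 6 culture arrays. Soleus was pooled with EDL and myotubes with myoblasts for this. An exact two-sided permutation test was used, adjusted over the 11 pairs, with a smallest possible p of 0.0022. It exchanged the arrays freely, although they fall into groups on shared slides. Cultures within a group may not be separate, and soleus and EDL samples may share mice. The test counts every array as independent, so its p-values describe these arrays and do not measure a shift between muscle and culture in general. The Ppat log ratio of the XM_896000 probe over the BC023841 probe was 1.48, 1.33 and 1.30 in soleus, 1.48, 1.32 and 1.56 in EDL, 0.24, 0.40 and 0.36 in myotubes, and 0.04, 0.25 and 0.10 in myoblasts. No muscle array overlapped a culture array, and the reverse ratio differed by -1.18 (adjusted exact p = 0.012). For Gmps, the AK136966 probe over the NM_001033300 probe gave -0.52, -0.13 and -0.47 in soleus, -0.60, 0.23 and 0.11 in EDL, -1.79, -1.33 and -1.44 in myotubes, and -2.98, -2.19 and -2.49 in myoblasts. The muscles were higher by 1.80 (adjusted exact p = 0.012), again without overlap, and myoblasts were lower than myotubes on every array.

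For Gart, the NM_010256 probe over the AK168445 probe gave -0.85, -0.66 and -0.89 in soleus, -0.61, -0.82 and -0.44 in EDL, -0.13, -0.51 and -0.44 in myotubes, and 0.38, 0.03 and -0.02 in myoblasts. Muscle was lower by 0.60 on average (adjusted exact p = 0.018), with EDL and myotubes overlapping. Group means were -0.80 in soleus, -0.62 in EDL, -0.36 in myotubes and 0.13 in myoblasts. Myotubes thus lay closer to EDL than to myoblasts, and the pooled test does not show a step between muscle and culture. The pair with the dim Cad probe also passed the test (2.69 higher in muscle, adjusted exact p = 0.016). It gives no measure of a shift, since that probe was at or near background in muscle. The other 7 pairs had an adjusted exact p of at least 0.13. Which transcripts of these genes the probes detect was not tested. Muscle came from CD1 mice and culture from the C2C12 line, so strain, cell types in tissue and transcript use cannot be told apart.

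**Figure D4:**
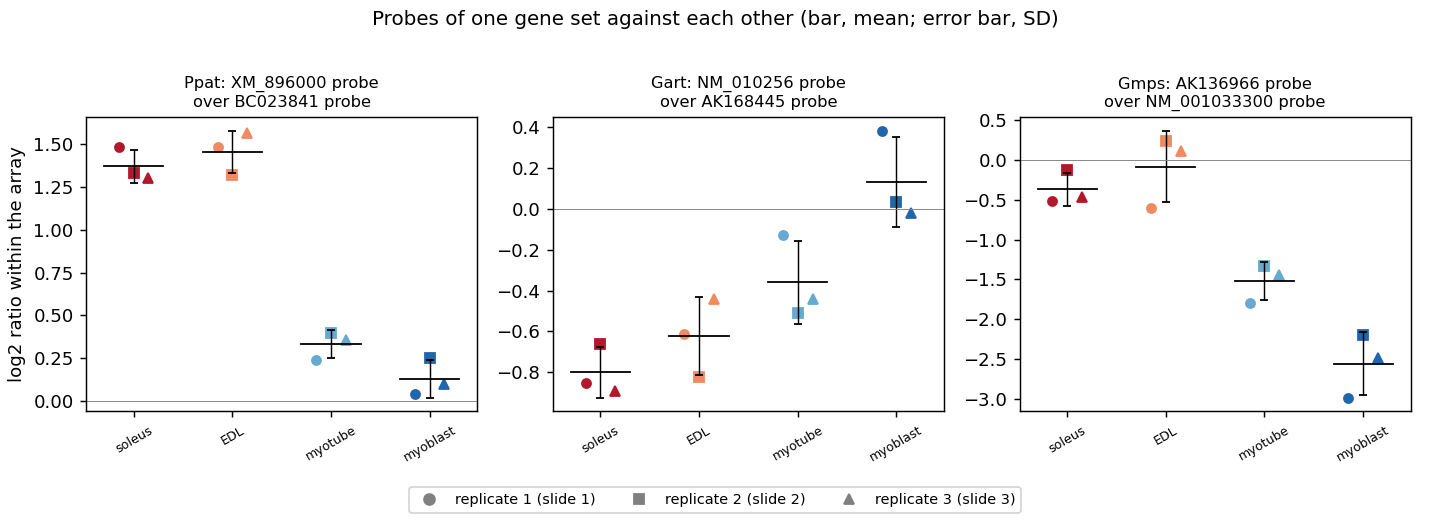
Log2 ratio (y axis) between 2 probes of Ppat, Gart and Gmps within each array, by group (x axis); bars are means and error bars the SD of 3 arrays. The Ppat ratio is at least 1.30 on all muscle arrays and at most 0.40 on all culture arrays.

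The other enzymes and isoforms of the pathway, 10 genes outside the set, had a median difference of -0.64 in myotubes against myoblasts, -0.66 in EDL and -0.49 in soleus against myotubes. In myotubes against myoblasts 1 rose and 3 fell, in EDL against myotubes 2 rose and 5 fell, and in soleus 2 rose and 4 fell. Of all genes 18.9% were called higher and 16.5% lower in myotubes against myoblasts. Against myotubes the shares were 27.8% and 19.9% in EDL and 25.8% and 19.5% in soleus, and in soleus against EDL 5.03% and 4.73%. These shares stand beside the counts of all lists below, and no list was tested against them. With spike-in scaling 1 rose and 6 fell in EDL, and none rose and 7 fell in soleus. Adssl1, the muscle form of adenylosuccinate synthetase on the branch to adenosine monophosphate (AMP), rose in myotubes by 3.81 (14.1-fold) and was higher than myotubes by 2.23 in EDL and 1.80 in soleus. Adss, the form found in other tissues, fell in myotubes by 2.87 (7.29-fold) and differed from myotubes by 0.18 in EDL and 0.15 in soleus (-0.83 and, called lower, -1.06 with spike-in scaling). Adsl, which acts both before IMP and on the AMP branch, differed by -0.12 in myotubes and rose by 1.45 in EDL and 1.16 in soleus. Spike-in scaling left Adssl1 called in EDL (1.22) and not in soleus (0.59), and ended the Adsl calls (0.45 and -0.05).

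On the GMP branch, Impdh1 had 11.05, 11.12 and 10.98 in soleus, 11.59, 11.63 and 11.41 in EDL, 14.75, 14.97 and 14.84 in myotubes, and 13.75, 13.98 and 13.84 in myoblasts. Myotubes were highest, whereas its relative Impdh2 was highest in myoblasts. Impdh1 fell in EDL by 3.31 (9.91-fold) and in soleus by 3.80 (13.9-fold) against myotubes, and its myotube difference from myoblasts was 0.99, at the edge of the fold threshold. Prps2, a synthetase of phosphoribosyl pyrophosphate, fell by 1.91 in myotubes against myoblasts and by 1.79 in EDL against myotubes, while Prps1 differed by -0.42 and 0.84. In soleus the regulatory subunit gene Prpsap1 fell by 1.77 against myotubes. Adss, Adsl and Impdh1 are shown in every comparison because they are the enzymes around IMP, a choice made after their values were seen.

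**Figure D5:**
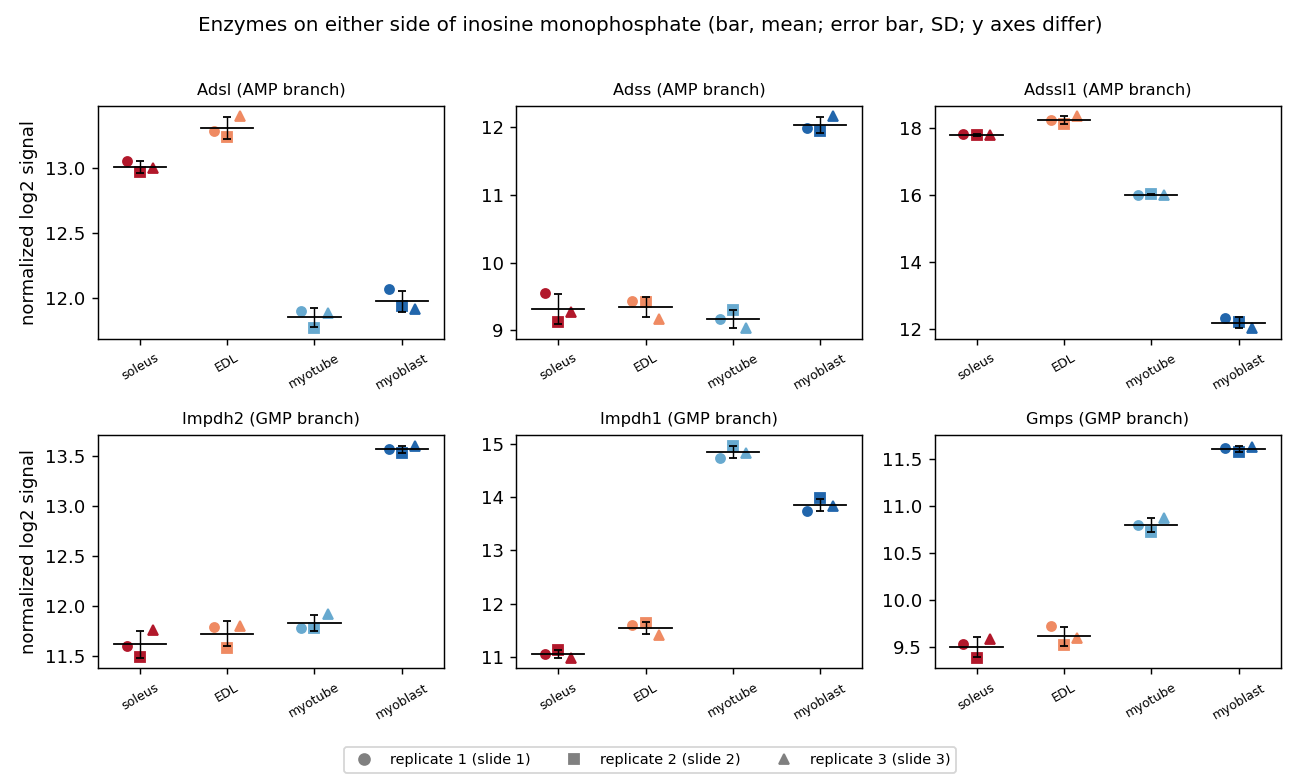
Normalized log2 signal (y axis, ranges differ between panels) of enzymes around IMP on every array by group (x axis); bars are means and error bars the SD of 3 arrays. Adssl1 lies at 17.78 to 18.35 in the muscles and at 12.02 to 12.33 in myoblasts, and Impdh1 is highest in myotubes, at 14.75 to 14.97.

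Genes that feed the pathway were also counted. Of 12 genes of serine and folate one-carbon supply, none rose and 7 fell in myotubes against myoblasts, with Mthfd1l, the mitochondrial formate producer, at -3.12, while Psat1 was not called (-0.50). EDL had 1 gene higher than myotubes, Aldh1l1 (3.10), which consumes formyl folate, and 5 fell, with the serine synthesis enzymes Psat1 at -6.70 and Phgdh at -5.18. In soleus 1 rose and 5 fell, with Aldh1l1 at 3.27, Psat1 at -4.79 and Phgdh at -4.25. With spike-in scaling the lower count was 8 in EDL and 10 in soleus. The median was -1.16 in myotubes against myoblasts, -0.69 in EDL and -0.97 in soleus against myotubes. Soleus was higher than EDL in 2, Psat1 (1.91) and Mthfd2 (1.03, not called with spike-in scaling). Psph, of the last serine step, was not called in EDL against myotubes (0.69).

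Of 11 genes of glutamine and aspartate supply, 1 rose and 4 fell in myotubes against myoblasts. Glul, glutamine synthetase, rose by 1.52, while the aspartate carrier Slc25a13 fell by 2.50, the glutamine transporter Slc1a5 by 2.39, and Asns was not called (-0.56). Against myotubes 5 rose and 4 fell in EDL, with Glul at 3.05 and the aspartate aminotransferase Got1 at 2.99, against asparagine synthetase Asns at -5.34 and the amino acid transporter Slc7a5 at -4.74. Slc25a22 was not called in EDL, at 0.26. In soleus 7 rose and 4 fell, with Slc25a13 at 3.12, Got1 at 2.76, Asns at -5.42 and Slc7a5 at -4.08. With spike-in scaling 3 rose and 4 fell in each muscle. The median was -0.56 in myotubes against myoblasts, 0.90 in EDL and 1.46 in soleus against myotubes. Soleus exceeded EDL in Slc25a13 by 2.21 and in Slc25a22, a mitochondrial glutamate carrier, by 1.62 (not called with spike-in scaling), and was lower in Glul by 1.58.

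Of 11 salvage genes, 2 rose and 5 fell in myotubes against myoblasts, leaving out Gda, which passed the test but was below background in both. Their median was -0.66, or -0.84 with probes below background at their bound. Uckl1 rose by 1.49 and Uprt by 1.14 (not called with spike-in scaling), while thymidine kinase Tk1 fell by 5.46 and deoxycytidine kinase Dck by 3.31, and the purine salvage enzyme Hprt was not called (-0.30). EDL had 3 higher and 3 lower than myotubes, with the adenosine kinase Adk at 2.79, the uridine kinase Uck2 at -2.23, Uprt at -1.19, and Aprt not called (-0.78). The median was -0.54 in EDL and -0.45 in soleus, or -0.66 and -0.50 with bounds. In soleus 2 rose and 2 fell, with Adk at 2.88, Uck2 at -1.72 and Hprt at -1.04. With spike-in scaling 2 rose in each muscle, and 6 fell in EDL and 7 in soleus. Gda, guanine deaminase, was not well above background in either culture, was so on 2 of 3 EDL arrays, and was at least 2.60-fold higher in EDL and at least 3.14-fold higher in soleus than in myotubes. Tk1 was the salvage gene lower in soleus than in EDL, by 1.58.

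The probes most like the mean scaled profile of the 10 genes over the 12 arrays were those of Tk1 (Pearson r 0.9962), Trnp1 (0.994), Dnaaf2 (0.9913), Pcbp2 (0.9912) and Plau (0.9911). Within the set, r with this profile was highest for Impdh2 (0.935) and Cad (0.887) and lowest for Dhodh (0.363) and Ppat (0.369). These r describe 12 arrays that fall into 4 groups and share the scaling.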

How the data were processed

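Each of the 12 arrays (3 per group) was a 1-colour Agilent scan with design coordinates in mm8. Per the file headers, Agilent Feature Extraction 10.5.1.1 made the deposited intensity values, a processed signal that was background-subtracted but not normalized between arrays, and 0/1 flag scores marking saturation, outliers and detection above background. The number of arrays limits the precision.

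Here control and outlier spots were left out, spots of 1 probe averaged, and log2 of the processed signal scaled by each array's 75th percentile (R 4.3.3, limma 3.58.1, the data.table package, version 1.17.8). Probes detected above background throughout some group were fitted together in limma (lmFit, eBayes, 4 groups) with Benjamini-Hochberg adjustment over all 28607 probes, and the scripts were tested on simulated data. File gene names were updated through RefSeq, 24375 probes by accession, 6301 by symbol and 2426 by synonym, and 8072 kept the file's name. The authors' deposited value table, a linear intensity for 41267 probes with unstated between-array normalization, served as an alternative. The others were spike-in, quantile and normexp scaling, dim-probe filters, probe rules, fold threshold, compared groups alone, replicate block, and replicates left out.

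Replicate numbers pair the arrays: per the file headers same-numbered arrays shared a slide, and all 18 correlations of their deviations from group means were over 0.1 (0.21 to 0.62). The 10 genes and all lists were chosen with earlier results of these data known. Named from each list are at most the 2 called genes highest and the 2 lowest in a comparison and the first listed gene not called. One gene that this rule names is not reported here.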

Additional observations from a re-analysis of the deposited data

Results flagged for a closer look

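The soleus and EDL differences from myotubes differed from each other for 3 of the 10 genes by a limma test of soleus minus EDL. They were -0.49 for Dhodh (0.83 in soleus and 1.32 in EDL), -0.69 for Ppat (0.73 in soleus and 1.42 in EDL) and -0.43 for Paics (-0.44 in soleus and -0.01 in EDL). None reached the fold threshold, and none had an adjusted p under 0.05 with spike-in scaling. The share of all genes that pass this test without the fold threshold was not counted.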

How the results depend on the processing

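Scaling by the spike-in controls gave 8 of the 10 genes lower in myotubes against myoblasts, 0 higher and 6 lower in EDL and in soleus against myotubes, and 10 lower in soleus against myoblasts. Without a fold threshold, 9 were lower in myotubes against myoblasts, 4 lower in EDL and 4 higher and 5 lower in soleus against myotubes, 3 lower in soleus against EDL, and 2 higher in EDL against myoblasts. The share of all genes called was counted neither for spike-in scaling nor without the threshold, so these counts have no background beside them. Averaging a gene's probes gave 1 lower in EDL against myotubes, and there it also ended the call of Ppat (0.86). In soleus against myotubes it ended the call of Gmps (-0.91) and added Umps (-1.11). Against myoblasts it ended the calls of Pfas in EDL (-0.08) and soleus (-0.46). With single replicates left out, the lower count was 4 to 5 in myotubes against myoblasts and 1 to 3 in EDL against myotubes (1 without EDL replicate 1, 3 without EDL replicate 3), and the other counts kept their values. The replicate block, with the slide as the pairing, left every count as it was, with 5 lower in myotubes against myoblasts. The values below turned sign, and where scaling is named the common shift is its construction; otherwise the cause was not tested. Spike-in scaling gave Gmps (AK136966) -0.13 and Xdh -0.12 and Myc -0.11 in myotubes against myoblasts. In EDL against myotubes it gave Gart -0.41 and -0.67 on its 2 probes, Gmps (AK136966) -0.75, Ppat (BC023841) -0.71, Adss -0.83, Prps1 -0.17, Psph -0.31, Slc25a22 -0.75 and Max -0.52. In soleus against myotubes it gave Dhodh -0.38, Gart -0.79, Ppat -0.48, Adsl -0.05, Adss -1.06 and Prps1 -0.77. It gave Pfas -0.18 and Umps -0.15 in soleus against EDL, and Dhodh -0.88 and Ppat -0.76 in EDL against myoblasts. Normexp gave Paics 0.01, Adsl 0.09, Upb1 -0.84 and Xdh -0.80 in myotubes against myoblasts, Gmps (AK136966) 0.05 and Prps1 -0.04 in soleus against myotubes, and Gart 0.11 in EDL against myoblasts. Atic was then not called in myotubes against myoblasts (-0.91), nor was Pfas in EDL (-0.99) and soleus (-0.85) against myoblasts. Quantile normalization and the authors' values gave Gart (NM_010256) 0.02 and 0.03 in soleus against myotubes, Slc25a22 -0.01 and -0.04 in EDL against myotubes, Gart 0.01 and 0.04 in EDL against myoblasts, and Dhodh 0.08 and 0.10 in soleus against myoblasts. Probe means gave Cad 0.25, Pfas -0.39 and Umps -0.18 in soleus against EDL and Ppat -0.06 in EDL against myoblasts. With replicates left out, Xdh was -0.07 to 0.51 in myotubes against myoblasts, Paics -0.10 to 0.08 in EDL and Gart (NM_010256) -0.13 to 0.14 in soleus against myotubes. In soleus against EDL, Cad was -0.15 to 0.06, Pfas -0.09 to 0.16 and Umps -0.03 to 0.14, Gart was -0.08 to 0.01 in EDL and Dhodh -0.07 to 0.04 in soleus against myoblasts. The 3 probe ratio shifts kept their sign over 20 settings, with a highest adjusted exact p of 0.16 to 0.19, reached with replicate 1 left out, where fewer arrays were tested.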

Other observations

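Of 14 genes of purine and pyrimidine breakdown, 4 rose and 3 fell in myotubes against myoblasts. Beside this list and the next, 18.9% of all genes were called higher and 16.5% lower there. Against myotubes the shares were 27.8% and 19.9% in EDL and 25.8% and 19.5% in soleus. Ampd1, the muscle AMP deaminase, rose by 5.91 and Upb1 by 1.73 (-0.84 with normexp), whereas adenosine deaminase Ada fell by 5.09 and Gmpr2 by 3.45, and Xdh was not called (0.23). Upb1 was dim, at 4.87 to 5.11 in myotubes and 3.15 to 3.37 in myoblasts, and was not called with spike-in scaling (1.38). In EDL against myotubes 6 rose and 3 fell, with Ampd1 at 6.23, Xdh, which makes uric acid, at 5.38, Ampd3 at -2.60 and Ampd2 at -2.23. In soleus 6 rose and 2 fell, with the pyrimidine-degrading Dpyd at 5.15, Xdh at 4.81, Ampd2 at -2.65 and Nt5c2 at -1.40. With spike-in scaling 2 rose and 3 fell in myotubes, 5 rose and 3 fell in EDL, and 5 rose and 4 fell in soleus. The median was -0.03 in myotubes against myoblasts, 1.02 in EDL and 1.06 in soleus against myotubes. Soleus was higher than EDL in Ampd3 (3.34) and Dpyd (1.92) and lower in Ampd1 (-1.62).

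Of 13 genes of Myc, its Max partners and nutrient signalling, 4 rose and 1 fell in myotubes against myoblasts. The Max partner Mxd1 rose by 4.04 and Rptor, of the mTORC1 complex, by 1.62, Nrf1 fell by 1.08, and Myc was not called (0.24). In EDL against myotubes 2 rose and 4 fell, with Mxi1 at 2.60, Myc at -3.83, Mxd1 at -2.46, and Max not called (0.49). In soleus 2 rose and 4 fell, with Mxi1 at 2.77, Myc at -4.38 and Mxd1 at -2.93. With spike-in scaling 3 rose and 3 fell in myotubes, 2 rose and 8 fell in EDL, and 2 rose and 10 fell in soleus. The median was -0.02 in myotubes against myoblasts, -0.50 in EDL and -0.23 in soleus against myotubes. Mycn was called higher in both muscles, with 7.17, 7.04 and 7.24 in soleus, 6.64, 6.43 and 6.35 in EDL, and 1.79, 1.20 and 3.86 in myotubes, where it was well above background on 1 of 3 arrays and no size is given.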
